A study of Mus musculus with 12 samples.

Results

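The enzymes of central carbon metabolism were examined in sorted regulatory T (Treg) cells, as 40 listed genes in 4 pathways: glycolysis with the lactate dehydrogenases (17 genes), the pentose phosphate pathway (6), pyruvate dehydrogenase with its kinase Pdk1 (4) and the tricarboxylic acid (TCA) cycle (13). The genes were listed by function, and each was represented by the array row, called a transcript cluster, that carries its symbol alone, or by the row with the highest mean where several do. This gave 35 measured genes of 40 listed, among 22180 genes with such a row and 41345 transcript clusters in all: 14 of glycolysis, 4 of the pentose phosphate pathway, 4 of pyruvate dehydrogenase and 13 of the TCA cycle. Gpi1, Eno1, Aldoa, G6pdx and Tkt had no row of their own symbol alone. The 12 arrays hybridised RNA of CD4+YFP+ Treg cells, sorted out of mouse spleen and lymph nodes, with 3 arrays for each of 4 genotypes. LKB1 KO samples came from mice labelled female and Foxp3Cre/+Lkb1f/f, and their LKB1 WT controls from Foxp3Cre/+ mice labelled female. Tgfbr2 KO samples came from mice labelled male and Foxp3CreTgfbr2 f/f, and their Tgfbr2 WT controls from Foxp3Cre mice labelled male. All 4 groups carried the Cre recombinase, expressed with YFP from the Foxp3 locus, so that deletion was limited to cells that express Foxp3. Foxp3 is X-linked, and heterozygous Foxp3Cre/+ females therefore also hold Treg cells without Cre, which the YFP gate leaves out. The sources used here give neither ages nor whether animals were pooled.

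Glycolysis converts glucose to pyruvate in the cytosol, and lactate dehydrogenase turns pyruvate into lactate when it is not oxidised. The pentose phosphate pathway branches from glucose 6-phosphate and yields NADPH and ribose for nucleotides. Pyruvate dehydrogenase feeds acetyl-CoA into the TCA cycle in mitochondria, where succinyl-CoA, fumarate and malate are passed on and electrons are captured for respiration. Lkb1 (gene Stk11) is a kinase that can activate AMPK, the sensor of low cellular energy. The study reports that AMPK activity was not clearly reduced in Treg cells lacking Lkb1, and proposes that other kinases may activate AMPK there. It also reports neither an adverse phenotype nor impaired function in vivo for Treg cells without AMPKα1 and AMPKα2. From both it argues that Lkb1 substrates other than AMPK account for the phenotype. Treg cells are known to rely on mitochondrial oxidation more than activated conventional T cells do. Tgfbr2 is the ligand-binding receptor for TGF-β, which maintains Treg cells. The comparisons asked how transcripts of these enzymes stood in LKB1 KO against LKB1 WT cells, in Tgfbr2 KO against Tgfbr2 WT cells, and whether the 2 deletions differed.

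Values are log2 intensities after subtraction of each array's own median, so 0 is the middle transcript cluster of an array. The arrays fell into 2 sets by the median of the deposited values. On 8 arrays it lay between 5.48 and 5.60, and on 4 arrays, LKB1 KO replicate 3, LKB1 WT replicate 3, Tgfbr2 KO replicate 1 and Tgfbr2 WT replicate 3, between 6.30 and 6.33. All 4 higher-intensity arrays went against the sex on their label, and none of the 8 lower-intensity arrays did. Xist, the RNA of the inactive X chromosome, stood at -1.24 on LKB1 KO replicate 3 and -1.0 on LKB1 WT replicate 3, both labelled female, and the Y-linked Eif2s3y at 3.00 and 3.11. On the arrays labelled male, Xist stood at 4.70 on Tgfbr2 KO replicate 1 and 4.54 on Tgfbr2 WT replicate 3, with Eif2s3y at -2.38 and -1.83. Smad7, a gene induced by TGF-β signalling, was at 4.15, 0.30 and 0.48 on the arrays labelled Tgfbr2 KO, against 3.90, 3.45 and 4.13 on those labelled Tgfbr2 WT. It was at 4.19, 3.04 and 0.56 on the arrays labelled LKB1 KO, against 3.98, 3.48 and 3.70 on those labelled LKB1 WT. Skil, a repressor that TGF-β signalling also induces, was at 3.57, 0.63 and 0.45 on the arrays labelled Tgfbr2 KO, against 3.55, 3.08 and 3.52 on those labelled Tgfbr2 WT, and at 3.72, 3.05 and 0.24 on the arrays labelled LKB1 KO, against 3.53, 3.47 and 3.22 on those labelled LKB1 WT. For both genes Tgfbr2 KO replicate 1 was as high as the controls, and LKB1 KO replicate 3 was close to the remaining arrays labelled Tgfbr2 KO and far below all the others. Whether the labels or columns of these 2 arrays, or of LKB1 WT replicate 3 and Tgfbr2 WT replicate 3, were crossed was not tested and would change every comparison below. The groups were kept as labelled, and "KO" and "WT" below mean the arrays so labelled. The counts, the enzymes described by array and the other pathway genes named are also given without the 4 higher-intensity arrays, 2 arrays against 2, and the plot of the differences shows all 35 enzymes both ways.

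Stk11 itself was at 2.68, 2.33 and 3.27 in LKB1 KO cells and 2.96, 2.90 and 3.15 in LKB1 WT cells. Tgfbr2 was at 3.55, 2.51 and 2.31 in Tgfbr2 KO cells and 3.04, 2.71 and 3.48 in Tgfbr2 WT cells. Stk11 stood at 2.78, 3.03 and 3.33 in Tgfbr2 KO cells and 3.18, 2.80 and 3.05 in Tgfbr2 WT cells. Tgfbr2 stood at 3.14, 2.37 and 2.71 in LKB1 KO cells and 2.78, 2.78 and 3.25 in LKB1 WT cells. The sources used here do not say where the probes of these rows lie relative to the deleted exons. Whether these values bear on the labels was not tested. All 9 measured T cell and Treg markers of 10 listed, Foxp3 among them, lay above the array median on all 12 arrays. Macrophage and monocyte markers (16 of 16 measured, 4 of them above the median on every array) summed to 26.4 to 46.3 times the median intensity in LKB1 KO cells against 24.4 to 240.4 in LKB1 WT cells, the highest on replicate 2, and to 16.1 to 22.1 in Tgfbr2 KO cells against 16.4 to 22.4 in Tgfbr2 WT cells. B cell markers (11 of 12 measured) summed to 8.8 to 25.8 in LKB1 KO cells against 11.3 to 36.9 in LKB1 WT cells, and to 10.5 to 15.9 in Tgfbr2 KO cells against 10.2 to 10.7 in Tgfbr2 WT cells. Their part in the results below was not tested. In such bulk samples, fewer cells of a type and less RNA per cell cannot be told apart.

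No enzyme passed the test in either comparison. With limma over all 41345 transcript clusters and Benjamini-Hochberg adjustment, 0 transcript clusters (0%) passed an adjusted p of 0.05 for Lkb1 and 0 (0%) for Tgfbr2, while 462 for Lkb1 and 706 for Tgfbr2 passed 0.05 before adjustment. The methods' t-test gave 675 and 902 before adjustment and 0 after it. Of the 35 enzymes, 0 had an unadjusted p under 0.05 in either comparison, the smallest being 0.0875 for Lkb1 and 0.276 for Tgfbr2. No enzyme differed by 1.5-fold or more. Among all transcript clusters 1.53% were higher and 2.2% lower by that much in LKB1 KO cells, and 1.49% higher and 0.692% lower in Tgfbr2 KO cells. Without the 4 higher-intensity arrays the test again called 0 transcript clusters for either deletion, with 1458 and 2227 at an unadjusted p under 0.05.

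**Figure D1:**
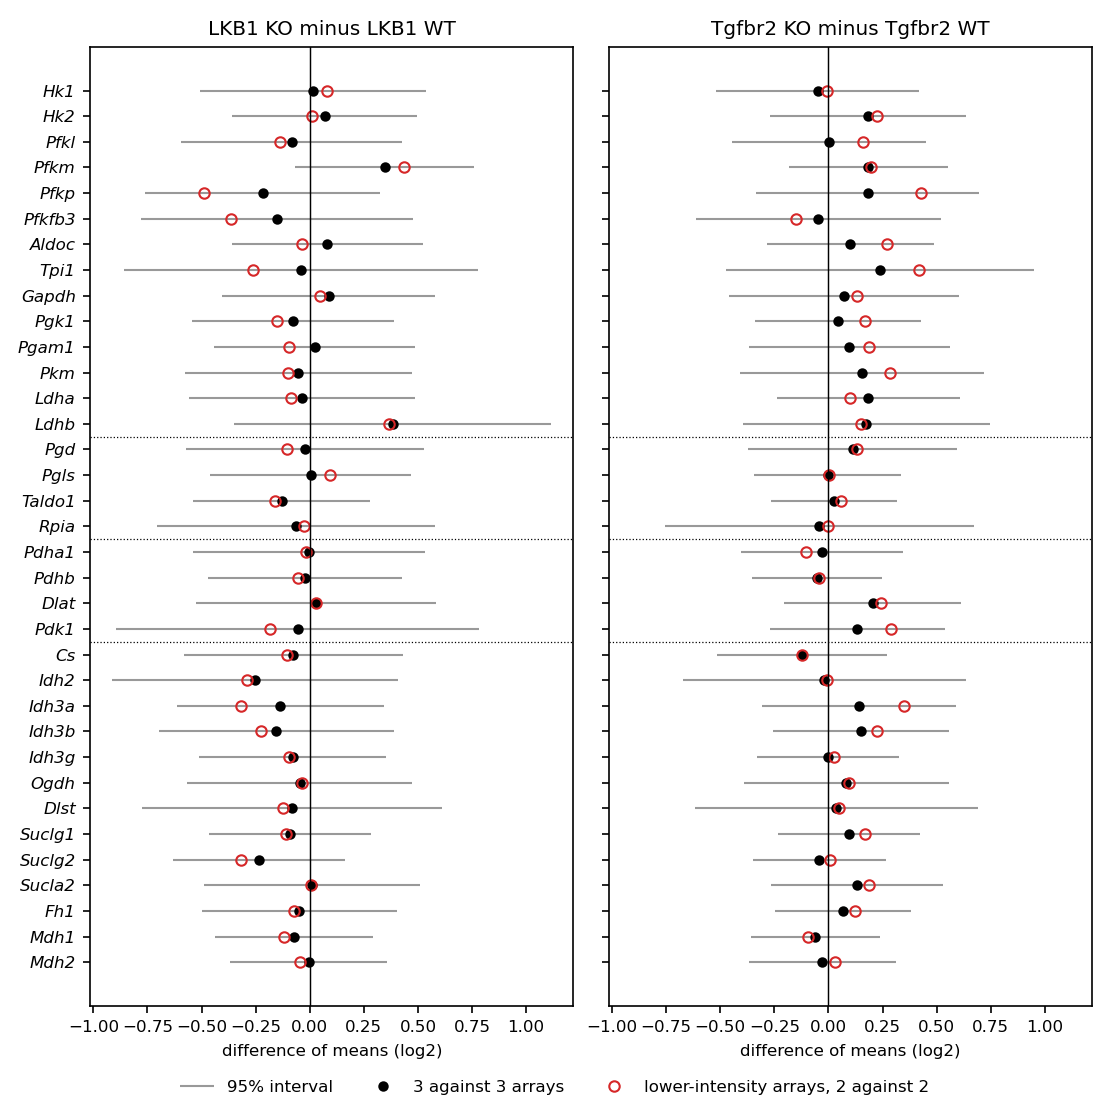
Difference of group means (log2, KO minus WT) for the 35 measured enzymes in LKB1 (left) and Tgfbr2 (right) Treg cells; filled points are 3 arrays against 3 with their 95% interval, open points the lower-intensity arrays alone, 2 against 2, and dotted lines part the pathways. All intervals span 0, and the differences run from -0.25 for Idh2 to 0.38 for Ldhb in the LKB1 comparison and from -0.12 for Cs to 0.24 for Tpi1 in the Tgfbr2 comparison.

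For Lkb1, 25 of 35 enzymes had a lower mean and 10 a higher mean in KO cells, where 53.1% of all transcript clusters had a lower mean. The median difference was -0.05 on the log2 scale, against -0.01 over all transcript clusters. In the TCA cycle 12 of 13 enzymes were lower, with a median of -0.08, while glycolysis was split, 7 higher and 7 lower. In the pentose phosphate pathway 3 of 4 and in pyruvate dehydrogenase 3 of 4 were lower. The count was sensitive to scaling and to single arrays: quantile normalization gave 18 enzymes higher and 17 lower, and leaving out LKB1 KO replicate 1 or LKB1 KO replicate 2 gave 17 or 18 higher in place of 10. On the lower-intensity arrays alone 27 of 35 were lower, and on the pair of higher-intensity arrays 12 of 35. In the TCA cycle these were 12 of 13 and 8 of 13, with medians of -0.11 and -0.01, and in glycolysis 9 of 14 and 1 of 14, with medians of -0.09 and 0.18.

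For Tgfbr2, 23 of 35 enzymes had a higher mean in KO cells and 12 a lower mean, where 46.9% of all transcript clusters had a lower mean. The median difference was 0.07, against 0.01 over all transcript clusters. In glycolysis 12 of 14 enzymes were higher, with a median of 0.13, while 7 of 13 TCA cycle enzymes, 2 of 4 pentose phosphate enzymes and 2 of 4 pyruvate dehydrogenase genes were higher. On the lower-intensity arrays alone 27 of 35 were higher, and on the pair of higher-intensity arrays 13 of 35. In the glycolytic list these were 12 of 14 and 5 of 14, with medians of 0.18 and -0.09.

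**Figure D2:**
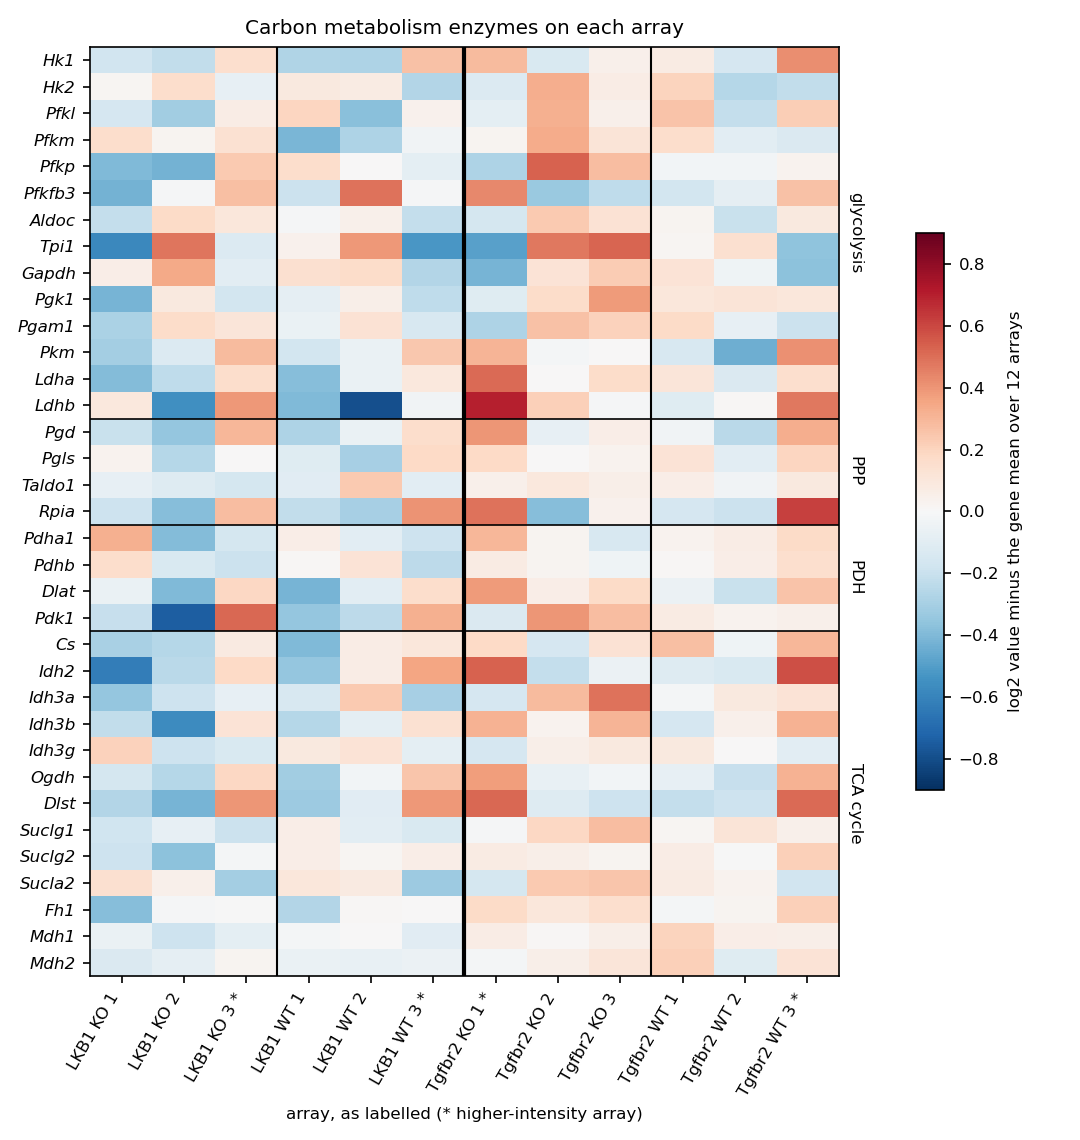
Deviation of each enzyme (rows, by pathway) from its mean over 12 arrays (log2) on each array (columns, KO left of WT within each deletion; an asterisk marks the 4 higher-intensity arrays). Hk1, Pkm, Pgd, Rpia, Idh2, Ogdh and Dlst are redder and Gapdh and Sucla2 bluer on the starred arrays of all 4 groups than on any other array.

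Phosphofructokinase carries out the committed step of glycolysis, and its muscle-type subunit Pfkm was the enzyme with the largest moderated t in both comparisons. Pfkm stood at 0.42, 0.28 and 0.40 in LKB1 KO cells, against -0.15, -0.02 and 0.23 in LKB1 WT cells. All 3 KO arrays lay above all 3 controls, a separation that 1.76% of all transcript clusters showed in this direction. The difference was 0.35 ± 0.17 (SE, n = 3 arrays a group; 95% interval -0.07 to 0.76; limma adjusted p 1.00), and 0.44 on the lower-intensity arrays. For Tgfbr2, Pfkm stood at 0.29, 0.60 and 0.38 in KO cells, against 0.42, 0.16 and 0.13 in WT cells. These groups overlapped, and the difference was 0.18 ± 0.16 (SE, n = 3 arrays a group; interval -0.18 to 0.55; limma adjusted p 1.00), and 0.20 on the lower-intensity arrays.

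The platelet-type subunit Pfkp showed opposite differences in the 2 deletions. It stood at 3.39, 3.36 and 4.02 in LKB1 KO cells, against 3.94, 3.78 and 3.69 in LKB1 WT cells. In Tgfbr2 KO cells it stood at 3.51, 4.31 and 4.06, against 3.76, 3.76 and 3.82 in Tgfbr2 WT cells. In each deletion the higher-intensity KO array was the one on the other side of its controls. The difference was -0.22 ± 0.23 in LKB1 cells and 0.18 ± 0.22 in Tgfbr2 cells, and on the lower-intensity arrays it was -0.49 and 0.43. The difference between the deletions was -0.40 (interval -1.11 to 0.31; limma adjusted p 1.00) over 12 arrays. Without the 4 higher-intensity arrays it was -0.92, with an unadjusted p of 0.0031 and a limma adjusted p of 0.65. The liver-type subunit Pfkl differed by -0.08 in LKB1 cells and 0.00 in Tgfbr2 cells, and Pfkfb3, which makes the activator fructose 2,6-bisphosphate, by -0.15 and -0.05.

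Hexokinases trap glucose in the cell as glucose 6-phosphate. Hk2, the inducible form, stood at 0.39, 0.53 and 0.30 in LKB1 KO cells, against 0.46, 0.45 and 0.11 in LKB1 WT cells. Hk2 stood at 0.25, 0.70 and 0.44 in Tgfbr2 KO cells, against 0.57, 0.11 and 0.15 in Tgfbr2 WT cells. The groups overlapped in both, and the differences were 0.07 ± 0.18 and 0.18 ± 0.19 (SE), or 0.01 and 0.22 on the lower-intensity arrays. Hk1, the widely expressed form, stood at 0.94, 0.89 and 1.26 in LKB1 KO cells, against 0.83, 0.83 and 1.37 in LKB1 WT cells. Hk1 stood at 1.39, 0.97 and 1.15 in Tgfbr2 KO cells, against 1.18, 0.96 and 1.53 in Tgfbr2 WT cells. For Hk1 the highest value of each group was on its higher-intensity array, and the genotype differences were 0.02 and -0.05, or 0.08 and -0.01 on the lower-intensity arrays.

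Aldoc, an aldolase, stood at 0.35, 0.74 and 0.67 in LKB1 KO cells, against 0.56, 0.61 and 0.35 in LKB1 WT cells, and at 0.41, 0.80 and 0.70 in Tgfbr2 KO cells, against 0.59, 0.37 and 0.65 in Tgfbr2 WT cells. Its differences were 0.08 and 0.10, with overlapping groups. They were -0.04 and 0.27 on the lower-intensity arrays, so the LKB1 difference turned its sign. Tpi1, which interconverts the triose phosphates, had the widest spread within groups of all 35 enzymes (SD 0.47) and is named here for that spread, after its values were seen. It stood at 3.03, 4.09 and 3.48 in LKB1 KO cells, against 3.64, 3.99 and 3.08 in LKB1 WT cells. In Tgfbr2 KO cells it stood at 3.12, 4.08 and 4.13, against 3.62, 3.75 and 3.24 in Tgfbr2 WT cells. The differences were -0.04 ± 0.34 and 0.24 ± 0.30 (SE), and on the lower-intensity arrays -0.26 and 0.42, the last with an unadjusted p of 0.0215 and a limma adjusted p of 0.90.

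Gapdh, the glyceraldehyde 3-phosphate dehydrogenase whose protein the study used to normalise its western blots, stood at 6.14, 6.42 and 5.98 in LKB1 KO cells, against 6.22, 6.25 and 5.82 in LKB1 WT cells. In Tgfbr2 KO cells it stood at 5.66, 6.20 and 6.31, against 6.21, 6.04 and 5.71 in Tgfbr2 WT cells. The differences were 0.09 ± 0.21 and 0.07 ± 0.22 (SE; 95% intervals -0.41 to 0.58 and -0.46 to 0.60), and 0.05 and 0.13 on the lower-intensity arrays. Within every group the lowest Gapdh value was on the higher-intensity array, and the step between the intensity sets, -0.43, exceeded both genotype differences. Gapdh has many near-identical pseudogenes, 8 more rows share its symbol with one of them, and its values are uncertain for that reason. The remaining triose enzymes Pgk1, Pgam1 and Pkm, the last a pyruvate kinase, differed by -0.08, 0.02 and -0.05 in LKB1 cells and by 0.04, 0.10 and 0.15 in Tgfbr2 cells. A second row of Pgam1, with a lower mean, differed by -0.02 and -0.12, so its rows disagree in sign in both. The row used is numbered among rows of chromosome 3 genes. The second is numbered among rows of chromosome 19, where Pgam1 lies. Whether the row used measures Pgam1 itself was not tested.

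Lactate dehydrogenase is a tetramer of A and B subunits. Ldhb had the largest difference of all 35 enzymes in the LKB1 comparison: it stood at 2.09, 1.45 and 2.39 in LKB1 KO cells, against 1.60, 1.21 and 1.97 in LKB1 WT cells. KO replicate 2 lay below 2 of the 3 controls, and the difference of 0.38 ± 0.31 (SE) had a 95% interval from -0.35 to 1.12 and a limma adjusted p of 1.00. Within same-numbered LKB1 samples Ldhb was higher in KO cells in 3 of 3 pairs, by 0.49, 0.24 and 0.42. The numbers are not shown to pair these samples: KO replicate 2 correlated at 0.30 with WT replicate 2 and at 0.45 with WT replicate 1. Blocking on replicate number gave Ldhb an interval from 0.05 to 0.72, with an unadjusted p of 0.033 and a limma adjusted p of 1.00. That interval depends on the unproven pairing, and the replicate 3 pair is the 2 arrays that go against their labelled sex. Ldhb and Pfkm were the 2 enzymes higher in all 3 pairs, as were 10.5% of all transcript clusters. Ldhb stood at 2.70, 2.21 and 1.99 in Tgfbr2 KO cells, against 1.89, 2.01 and 2.47 in Tgfbr2 WT cells, a difference of 0.18 ± 0.24. Ldha stood at 1.30, 1.46 and 1.85 in LKB1 KO cells, against 1.31, 1.63 and 1.78 in LKB1 WT cells, a difference of -0.04 ± 0.22. In Tgfbr2 KO cells it stood at 2.20, 1.69 and 1.86, against 1.80, 1.56 and 1.84 in Tgfbr2 WT cells, a difference of 0.18 ± 0.18. On the lower-intensity arrays the Ldhb differences were 0.36 and 0.15 and the Ldha differences -0.09 and 0.10, in LKB1 and Tgfbr2 cells in that order.

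**Figure D3:**
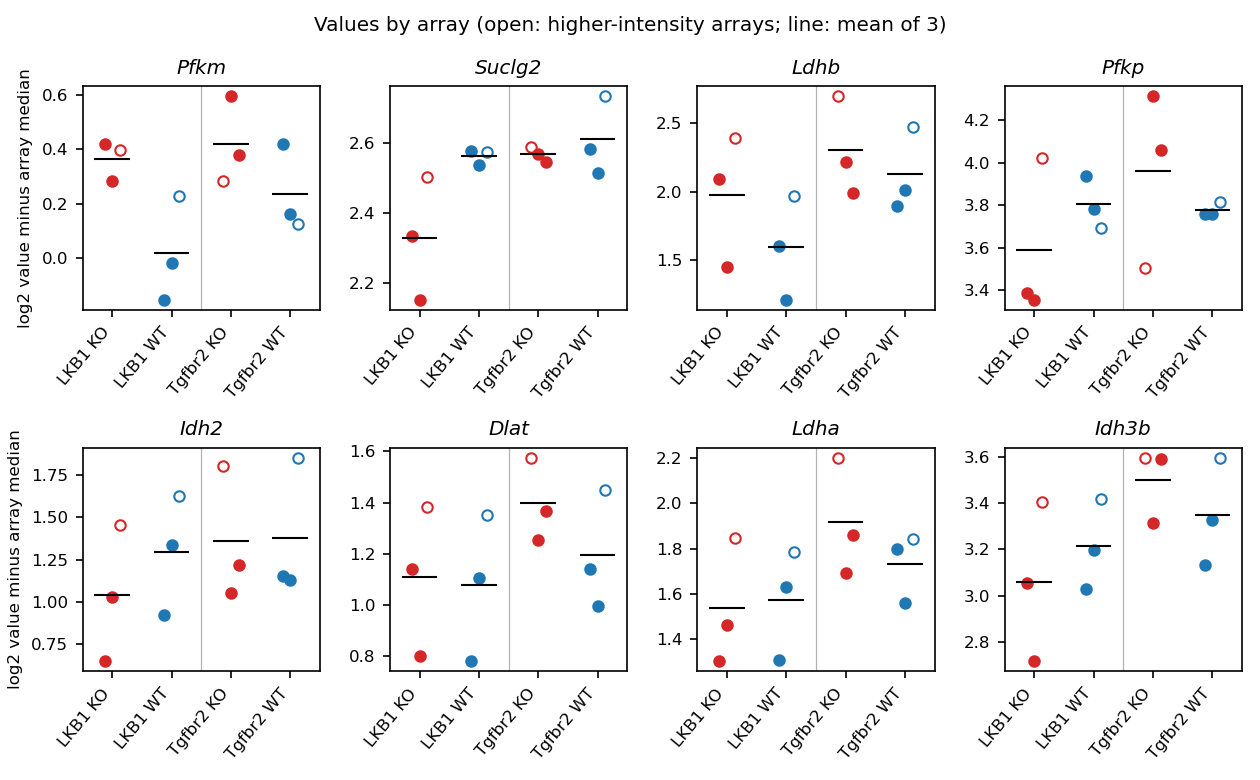
Log2 value minus array median of 8 enzymes by labelled group (red, KO; blue, WT; open circles, higher-intensity arrays; line, mean of 3). Pfkm and Suclg2 are the enzymes whose LKB1 KO and LKB1 WT arrays do not overlap. For Ldhb, Idh2 and Dlat the open circles are the highest value of every group, as the higher-intensity arrays also are for Ldha and Idh3b.

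In the pentose phosphate pathway Taldo1, the transaldolase that exchanges carbon units with glycolysis, came closest to a difference. It stood at 3.33, 3.29 and 3.25 in LKB1 KO cells, against 3.31, 3.64 and 3.31 in LKB1 WT cells, and at 3.45, 3.50 and 3.46 in Tgfbr2 KO cells, against 3.46, 3.37 and 3.49 in Tgfbr2 WT cells. The LKB1 difference of -0.13 ± 0.17 (SE) rested on WT replicate 2, the array with the highest macrophage markers, and without it the difference was -0.02. On the lower-intensity arrays, which include WT replicate 2, the differences were -0.16 and 0.06. Pgd and Pgls, of the oxidative branch that makes NADPH, differed by -0.02 and 0.00 in LKB1 cells and by 0.11 and 0.00 in Tgfbr2 cells. A second row of Pgls, with a lower mean, differed by -0.41 and -0.02. Rpia, which makes ribose 5-phosphate, differed by -0.06 and -0.04.

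Of pyruvate dehydrogenase, Dlat, its acetyltransferase core subunit, stood at 1.58, 1.25 and 1.37 in Tgfbr2 KO cells, against 1.14, 1.00 and 1.45 in Tgfbr2 WT cells. The difference was 0.20 ± 0.17 (SE; 95% interval -0.20 to 0.61; limma adjusted p 1.00) and 0.24 without the higher-intensity arrays. In LKB1 KO cells Dlat stood at 1.14, 0.80 and 1.38, against 0.78, 1.10 and 1.35 in LKB1 WT cells, a difference of 0.03 ± 0.23, and 0.03 on the lower-intensity arrays. Pdha1 and Pdhb, the subunits of the decarboxylase, differed by 0.00 and -0.02 in LKB1 cells and by -0.03 and -0.05 in Tgfbr2 cells. Pdk1, the kinase that switches the complex off, differed by -0.06 ± 0.35 and 0.13 ± 0.17. A second row of Pdk1, with a lower mean, differed by 0.155 and 0.056, so the rows disagree in sign in LKB1 cells.

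In the TCA cycle Suclg2, the GTP-forming subunit of succinyl-CoA ligase, was the enzyme whose LKB1 KO arrays all lay below the controls. It stood at 2.33, 2.15 and 2.50 in LKB1 KO cells, against 2.58, 2.54 and 2.58 in LKB1 WT cells, and 2.05% of all transcript clusters were separated in this direction. The difference was -0.23 ± 0.17 (SE; 95% interval -0.63 to 0.17; limma adjusted p 1.00) and -0.32 on the lower-intensity arrays. Suclg2 stood at 2.59, 2.57 and 2.55 in Tgfbr2 KO cells, against 2.58, 2.52 and 2.74 in Tgfbr2 WT cells, a difference of -0.04 ± 0.13, and 0.01 on the lower-intensity arrays. A second Suclg2 row, far below the array median, differed by 0.10 in LKB1 cells, so the rows disagree in sign. The shared subunit Suclg1 stood at 3.01, 3.12 and 3.00 in LKB1 KO cells, against 3.25, 3.10 and 3.06 in LKB1 WT cells, and at 3.18, 3.38 and 3.47 in Tgfbr2 KO cells, against 3.21, 3.31 and 3.24 in Tgfbr2 WT cells. Its differences were -0.09 and 0.09, or -0.11 and 0.17 on the lower-intensity arrays, and those of Sucla2, the ATP-forming partner, 0.01 and 0.13. In the Tgfbr2 comparison no enzyme had groups that did not overlap, where 2.81% of all transcript clusters lay wholly above and 2.13% wholly below in KO cells.

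Isocitrate dehydrogenase oxidises isocitrate in 2 forms, the NADPH-producing Idh2 and the NADH-producing complex of Idh3a, Idh3b and Idh3g. Idh2 stood at 0.65, 1.03 and 1.45 in LKB1 KO cells, against 0.92, 1.34 and 1.63 in LKB1 WT cells, the lowest difference of the 35 at -0.25 ± 0.28 (SE; 95% interval -0.91 to 0.41). In Tgfbr2 KO cells it stood at 1.80, 1.06 and 1.22, against 1.15, 1.13 and 1.85 in Tgfbr2 WT cells, a difference of -0.02 ± 0.28. Both pairs of groups overlapped over most of their range, and the highest value of every group was on its higher-intensity array. The differences were -0.29 and 0.00 on the lower-intensity arrays. Within same-numbered LKB1 samples, which are not shown to be pairs, Idh2 was lower in KO cells in 3 of 3. The differences were -0.27, -0.31 and -0.17, and blocking on replicate number gave an interval from -0.57 to 0.07 (limma adjusted p 1.00). Suclg2 and Fh1 were also lower in all 3 pairs, as were 12.9% of all transcript clusters. Idh3b stood at 3.06, 2.72 and 3.40 in LKB1 KO cells, against 3.03, 3.20 and 3.42 in LKB1 WT cells, and at 3.60, 3.31 and 3.59 in Tgfbr2 KO cells, against 3.13, 3.33 and 3.59 in Tgfbr2 WT cells. Its differences were -0.15 ± 0.23 and 0.15 ± 0.17, or -0.22 and 0.22 on the lower-intensity arrays, and over 12 arrays their difference was -0.30 (interval -0.93 to 0.32; limma adjusted p 1.00). Idh3a stood at 1.86, 2.02 and 2.14 in LKB1 KO cells, against 2.07, 2.45 and 1.92 in LKB1 WT cells, and at 2.06, 2.49 and 2.70 in Tgfbr2 KO cells, against 2.20, 2.30 and 2.34 in Tgfbr2 WT cells. Its differences were -0.14 and 0.14, or -0.32 and 0.35 without the higher-intensity arrays. Idh3g, the third subunit, differed by -0.08 in LKB1 cells and 0.00 in Tgfbr2 cells. Of the other cycle enzymes, Cs, the citrate synthase that starts the cycle, differed by -0.08 and -0.12. The oxoglutarate dehydrogenase subunits Ogdh and Dlst differed by -0.05 and -0.08 in LKB1 cells and by 0.08 and 0.04 in Tgfbr2 cells. Fh1, the fumarase, differed by -0.05 and 0.07, and the malate dehydrogenases Mdh1 and Mdh2 by -0.07 and 0.00 in LKB1 cells and by -0.06 and -0.03 in Tgfbr2 cells. Mdh1 had the narrowest spread within groups of the 35 enzymes, an SD of 0.06.

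By array, the median deviation of the 13 TCA cycle enzymes from their own means was -0.18, -0.19 and 0.00 in LKB1 KO cells and -0.15, 0.01 and 0.00 in LKB1 WT cells. KO replicates 1 and 2 were the lowest of the 6, with WT replicate 1 next to them, and KO replicate 3 lay beside the other controls. Leaving out single arrays moved the median TCA cycle difference between -0.18 and -0.03. The median deviation of the 14 glycolytic enzymes was -0.10, 0.23 and 0.12 in Tgfbr2 KO cells and 0.09, -0.09 and 0.09 in Tgfbr2 WT cells, so the KO arrays held both the lowest and the highest values of the 6.

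On the lower-intensity arrays alone, complete separation of 2 arrays from 2 was common. For Lkb1, Hk1 and Pfkm lay above their controls (14.3% of all transcript clusters did) and Pfkp, Idh3a, Suclg2, Mdh1 and Mdh2 below them (14.9%). For Tgfbr2, 14 of 35 enzymes lay above their controls, where 19.6% of all transcript clusters did: Pfkp, Aldoc, Tpi1, Pgk1, Pgam1, Pkm, Dlat, Pdk1, Idh3a, Ogdh, Dlst, Suclg1, Sucla2 and Fh1. Pfkfb3, Pdha1 and Mdh1 lay below them (14.3%). Of these enzymes, Pfkp alone had an unadjusted p under 0.05 in LKB1 cells, and Pfkp and Tpi1 in Tgfbr2 cells. The higher-intensity pair gave the opposite sign for 19 of 35 enzymes in the LKB1 comparison and for 20 of 35 in the Tgfbr2 comparison.

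**Figure D4:**
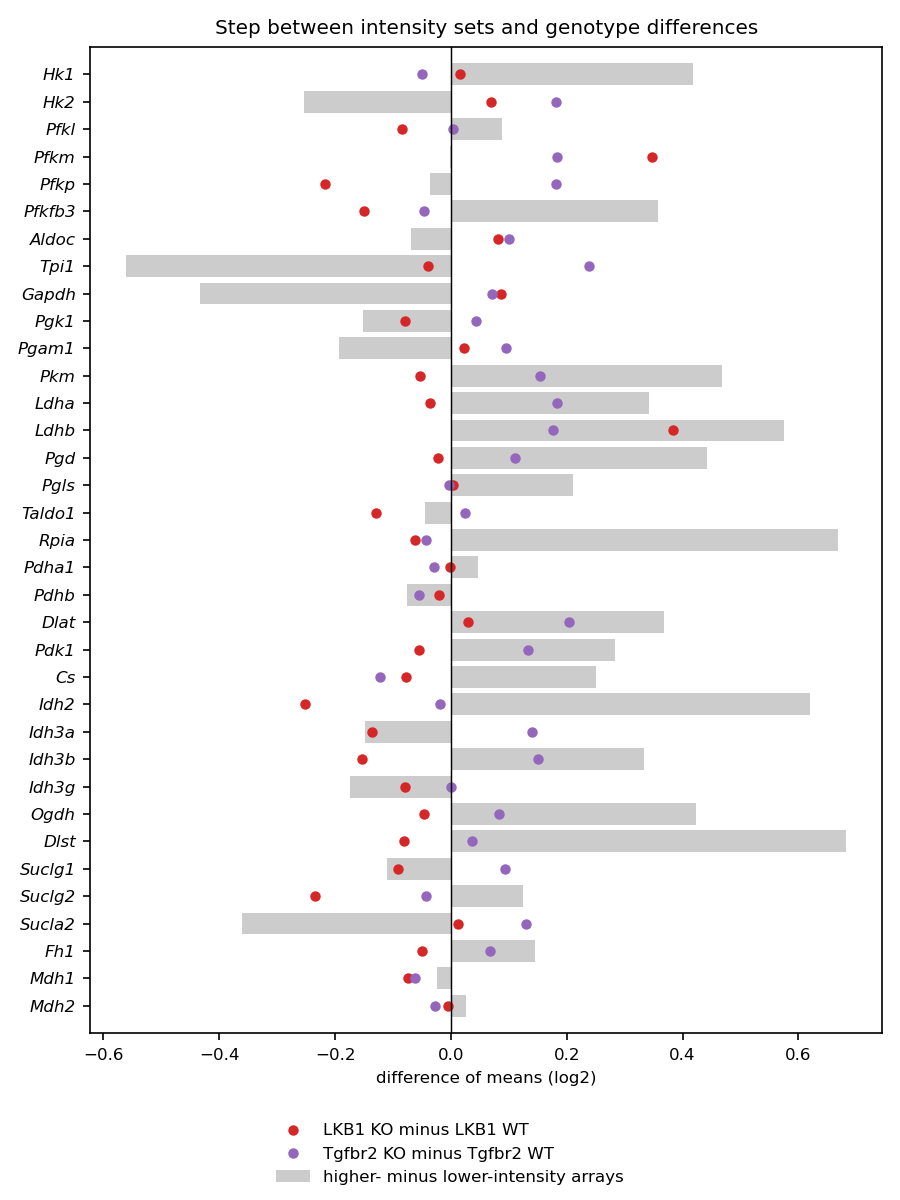
For each of the 35 enzymes, the mean on the 4 higher-intensity arrays minus the mean on the 8 lower-intensity arrays (grey bar, log2) and the KO minus WT differences in LKB1 (red) and Tgfbr2 (purple) cells. The bar exceeds both genotype differences in size for 28 of 35 enzymes, and bars run from -0.56 for Tpi1 to 0.68 for Dlst.

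The step between the intensity sets was larger than the genotype differences for most enzymes, as for most transcript clusters on these arrays. Its median size was 0.25 over the 35 enzymes, against 0.28 over all transcript clusters, while the median size of the genotype difference was 0.07 for Lkb1 and 0.08 for Tgfbr2, against 0.12 and 0.10 over all transcript clusters. The step exceeded both genotype differences for 28 of 35 enzymes and for 64.9% of all transcript clusters. The values of 9 of 35 enzymes did not overlap between the sets, where 23.7% of all transcript clusters did not. Hk1, Pkm, Pgd, Rpia, Idh2, Ogdh and Dlst were higher and Gapdh and Sucla2 lower on the higher-intensity arrays. The median SD within groups was 0.23 over the enzymes with all arrays and 0.16 with the lower-intensity arrays alone. Each group holds 1 higher-intensity array, so the set is balanced over genotypes, and with it as a block the test also called 0 transcript clusters in either comparison. The labels give no batch, and what sets these arrays apart was not tested.

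**Figure D5:**
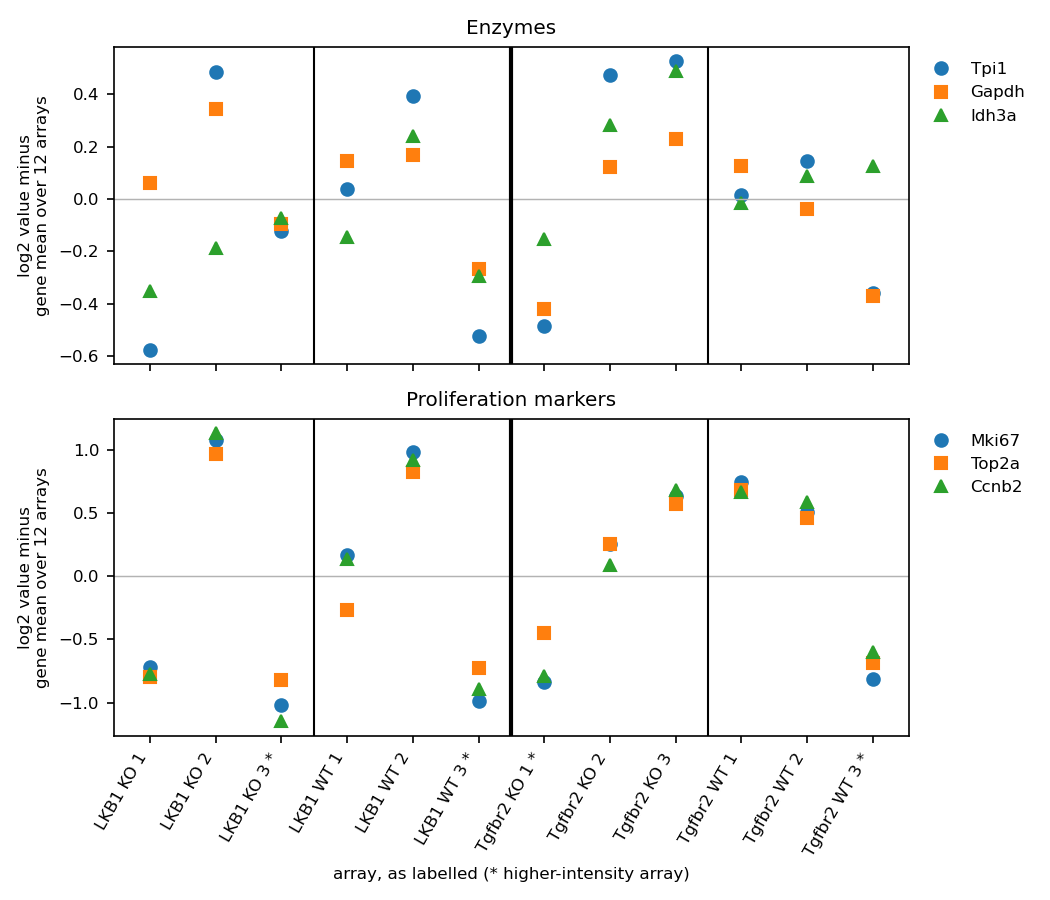
Log2 value minus the gene mean over 12 arrays for Tpi1, Gapdh and Idh3a (top) and the proliferation markers Mki67, Top2a and Ccnb2 (bottom) on each array, KO left of WT within each deletion; an asterisk marks the higher-intensity arrays. LKB1 KO replicate 2 and LKB1 WT replicate 2 are the highest for Mki67 and high for Tpi1, and the starred arrays are low for both. Of the enzymes not shown, Hk1, Pkm, Pgd, Rpia, Idh2, Ogdh and Dlst are higher and Sucla2 lower on the starred arrays than on any other array.

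Proliferation markers, of which 13 of 14 were measured and 11 lay above the median on every array, ranged widely within each group. Their summed level was 70.4 to 173.9 times the median intensity in LKB1 KO cells against 74.5 to 165.8 in LKB1 WT cells, and 79.1 to 141.1 in Tgfbr2 KO cells against 85.6 to 153.8 in Tgfbr2 WT cells. Mki67 stood at 3.34, 5.14 and 3.04 in LKB1 KO cells, against 4.23, 5.04 and 3.08 in LKB1 WT cells, and at 3.22, 4.31 and 4.70 in Tgfbr2 KO cells, against 4.80, 4.57 and 3.24 in Tgfbr2 WT cells. The arrays low for Mki67, LKB1 KO replicate 1 and the 4 higher-intensity arrays, were also those with the 5 lowest Tpi1 values. The median deviation of all 35 enzymes was -0.185, -0.189 and 0.083 in LKB1 KO cells, against -0.108, 0.0005 and -0.033 in LKB1 WT cells. In Tgfbr2 KO cells it was 0.072, 0.055 and 0.089, against 0.029, -0.041 and 0.153 in Tgfbr2 WT cells. That of the 13 markers was -0.718, 0.897 and -0.823 in LKB1 KO cells, against 0.007, 0.824 and -0.784 in LKB1 WT cells. In Tgfbr2 KO cells it was -0.681, 0.224 and 0.568, against 0.680, 0.460 and -0.60 in Tgfbr2 WT cells. The part of proliferation in the enzyme values was not tested.

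The other genes of these pathways were likewise not called: of 22 further glycolysis genes, 9 pentose phosphate genes, 16 genes of pyruvate entry and 8 TCA cycle genes measured, 0 had an unadjusted p under 0.05 in either comparison. Without the higher-intensity arrays 1 did for Lkb1, Galm, and 3 for Tgfbr2, Adpgk, Eno3 and Pgm3, named here after their values were seen; their limma adjusted p was 0.68 or more. Those with the largest moderated t are named. For Lkb1, the hexokinase-related Hkdc1 stood at -0.38, 0.26 and -0.09 in LKB1 KO cells, against -0.60, -0.42 and -0.49 in LKB1 WT cells, a difference of 0.43 ± 0.21 (SE), and 0.45 on the lower-intensity arrays. Galm, the mutarotase of galactose and glucose, stood at 1.14, 1.60 and 2.58 in LKB1 KO cells, against 2.27, 2.30 and 2.75 in LKB1 WT cells, a difference of -0.67 ± 0.38. Without the higher-intensity arrays the Galm difference was -0.92, with an unadjusted p of 0.00958 and a limma adjusted p of 1.00. The cytosolic Idh1 stood at 0.25, 0.39 and 0.28 in LKB1 KO cells, against 0.29, 2.00 and 0.54 in LKB1 WT cells, a difference of -0.63 ± 0.43 with the highest value on WT replicate 2, the array with the highest macrophage markers, and -0.82 on the lower-intensity arrays, which include it. For Tgfbr2, Pklr, the pyruvate kinase of liver and red cells, stood at 0.79, 0.47 and 0.45 in Tgfbr2 KO cells, against 0.39, 0.35 and 0.24 in Tgfbr2 WT cells, a difference of 0.24 ± 0.15, and 0.09 on the lower-intensity arrays. Bpgm, which makes 2,3-bisphosphoglycerate, differed by 0.22 ± 0.15, and Galm by -0.29 ± 0.24, or 0.22 and 0.06 on the lower-intensity arrays, so Galm turned its sign. The pathway lists had median differences between -0.10 and -0.03 for Lkb1 and between -0.02 and 0.01 for Tgfbr2.

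The test of the difference between the deletions, over 12 arrays, called 0 of 41345 transcript clusters, with 406 at an unadjusted p under 0.05 and 0 of 35 enzymes among them. Without the higher-intensity arrays it again called 0, with 2076 at an unadjusted p under 0.05 and 2 of 35 enzymes, Pfkp and Idh3a, among them. The contrast was below 0 for 26 of 35 enzymes over 12 arrays, with a median of -0.12 against -0.03 over all transcript clusters, and quantile normalization brought this to 21 of 35 and -0.02. The direction turned with the intensity set: on the lower-intensity arrays 29 of 35 enzymes were below 0, with a median of -0.21, and on the higher-intensity arrays, 1 of each group, 11 of 35, with a median of 0.07. In glycolysis these were 11 of 14 and 1 of 14. The higher-intensity arrays are the ones that go against their labelled sex. An exchange of LKB1 and Tgfbr2 labels among them would by itself reverse the sign of this contrast there, and was not tested. The largest moderated t belonged to Pfkp, Idh3b, Suclg2, Idh3a, Suclg1 and Taldo1, all below 0 over 12 arrays and with adjusted p of 1.00 by limma.

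Promoter windows of RefSeq (build GRCm38.p6, 250 bases before to 50 bases after an annotated start) were found for 39 of the 40 listed genes, 58 windows in all, and 3 are shown: those of Pfkm and Suclg2, whose LKB1 groups did not overlap, and that of Ldha, a known target of the hypoxia-inducible factor HIF-1. Capitals mark the 5-letter words ACGTG and GCGTG on either strand (CACGT and CACGC on the strand printed), the core of the HIF response element; CACGTG, the E-box, reads ACGTG on both strands and is counted in both. The Pfkm window is the most upstream of 4, at chr15:98092339-98092638 on the plus strand. The Suclg2 window, its only one, is at chr6:95718797-95719096 on the minus strand, and the Ldha window, the upstream one of 2, at chr7:46845554-46845853 on the plus strand.
Pfkm: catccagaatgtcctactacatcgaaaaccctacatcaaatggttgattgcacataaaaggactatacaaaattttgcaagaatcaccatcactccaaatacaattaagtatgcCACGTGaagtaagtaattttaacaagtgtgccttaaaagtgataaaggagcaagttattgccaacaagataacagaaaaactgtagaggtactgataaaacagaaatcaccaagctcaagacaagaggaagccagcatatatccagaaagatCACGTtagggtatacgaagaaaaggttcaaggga
Suclg2: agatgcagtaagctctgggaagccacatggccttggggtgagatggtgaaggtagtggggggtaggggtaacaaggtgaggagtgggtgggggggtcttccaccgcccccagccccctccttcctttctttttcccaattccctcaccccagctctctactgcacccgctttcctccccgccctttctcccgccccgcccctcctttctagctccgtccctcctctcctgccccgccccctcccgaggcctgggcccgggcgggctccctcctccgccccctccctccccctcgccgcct
Ldha: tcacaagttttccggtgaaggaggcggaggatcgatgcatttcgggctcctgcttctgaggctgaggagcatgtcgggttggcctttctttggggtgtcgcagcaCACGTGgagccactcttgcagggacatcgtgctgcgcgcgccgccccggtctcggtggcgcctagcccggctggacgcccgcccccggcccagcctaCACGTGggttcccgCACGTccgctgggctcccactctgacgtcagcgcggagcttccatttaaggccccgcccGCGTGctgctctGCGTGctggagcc

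The Ldha window holds 5 matches of ACGTG and 2 of GCGTG, the Pfkm window 3 and 0, and the Suclg2 window none of either. The windows not shown hold fewer: 2, 1 and 0 matches of either word for Pfkm, and 2 for Ldha. ACGTG occurs in 24 of the 58 windows of the listed enzymes (41.4%), against 19.6% of all 32851 promoter windows, GCGTG in 34 of 58 (58.6%) against 32.4%, and CACGTG in 6 of 58 (10.3%) against 7.2%. Several windows of one gene overlap or share a gene, and base composition was not matched. Such a match is a description of the letters in the window, and Ldha, with the most matches of the 3, differed by -0.04 in LKB1 cells and 0.18 in Tgfbr2 cells, both inside their intervals around 0 (-0.56 to 0.49 and -0.24 to 0.61).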

How the data were processed

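RNA of sorted Treg cells was measured on 12 Affymetrix mouse arrays. The deposited values are log2 expression values, 1 per transcript cluster and array, made by the authors with Agilent GeneSpring software; the sources used here do not give the summarization, the normalization or a detection call, so no dim row was removed. They ranged from 1.94 to 14.0. Each array's own median was subtracted. Groups followed the labels. Symbols came from the platform annotation: 23521 transcript clusters had 1 symbol, 1820 several and 16004 none. The members and lists were chosen with earlier results of these data known.

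KO was compared with WT arrays in each deletion by limma 3.58.1 (R 4.3.3; lmFit and eBayes, two-sided) on 6 arrays over all 41345 transcript clusters, with Benjamini-Hochberg adjustment and calls at an adjusted p under 0.05, and the difference of the deletions on 12 arrays. Intervals are 95% from the same fits. The fit was tested on simulated data. The labels name biological replicates but not the animals, so p-values measure the spread between these samples, and precision is limited by having 3 arrays a group. Array pairs correlated at 0.93 to 0.98 within groups and 0.93 to 0.99 between groups over all transcript clusters, and 0 pairs were identical. Values by array are given for the 6 enzymes with the largest absolute moderated t in each comparison, every enzyme whose groups did not overlap, Gapdh, and the isoenzyme pairs; of other pathway genes for the 3 with the largest t in each comparison, where Bpgm and the second comparison of Galm are given as differences. Blocks by replicate number took same-numbered samples as pairs, which the correlations of their deviations do not establish. In the LKB1 experiment same-numbered samples correlated at r = 0.39, 0.30 and 0.74, the last between both higher-intensity arrays. The lower-intensity arrays also correlated across numbers, KO replicate 1 with WT replicate 2 at 0.11 and KO replicate 2 with WT replicate 1 at 0.45. In the Tgfbr2 experiment same-numbered samples correlated at -0.52, 0.23 and -0.57. There the higher-intensity arrays, KO replicate 1 and WT replicate 3, correlated at 0.72 and the lower-intensity arrays at 0.23 to 0.50. The correlations thus followed the intensity sets. Alternatives were the values as deposited, quantile normalization, blocks by replicate number and by intensity set, either set alone, one model of 12 arrays, only rows above the median, the mean of all rows of a gene, a trended robust prior, array weights, the methods' t-test and leaving out each array. No set test was run. Matplotlib 3.10.9 drew the plots.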

Additional observations from a re-analysis of the deposited data

How the results depend on the processing

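Across 52 further fits of the 3 tests, 0 called any transcript cluster at an adjusted p under 0.05. At an unadjusted p under 0.05 they held 65 to 3649. These fits covered all transcript clusters, except those limited to rows above the median, which covered 20626. The methods' t-test at an unadjusted p under 0.05 gave 675 for Lkb1 and 902 for Tgfbr2. The replicate block called 0 in each comparison, with 1483 for Lkb1 and 495 for Tgfbr2 at an unadjusted p under 0.05, and left the median differences at -0.05 and 0.07; 1 LKB1 KO sample, replicate 2, and all 3 Tgfbr2 KO samples did not correlate best with the WT sample of their own number. Enzymes with a higher mean in LKB1 KO cells numbered 10, against 18 under quantile normalization, 23 on the higher-intensity arrays alone and 8 to 18 without single arrays, and their median difference ran from -0.11 to 0.00 without single arrays. For Tgfbr2 the number was 23, against 13 on the higher-intensity arrays and 18 to 29 without single arrays, and the median ran from 0.00 to 0.10 without single arrays and was -0.052 on the higher-intensity arrays. That pair of arrays, which has no test, also turned the sign of Pfkp in LKB1 cells (0.33), in Tgfbr2 cells (-0.31) and between the deletions (0.64), and of Suclg2 (0.072) and Idh3a (0.50) between the deletions. It also turned the median enzyme difference between the deletions, 0.07 with 24 of 35 enzymes above 0 in place of -0.12 and 9. The other differences with the largest t kept their direction in every alternative run. The cause was not tested. An exchange of LKB1 and Tgfbr2 labels among the higher-intensity arrays would by itself reverse the contrast between the deletions there. The mean of all rows of a gene gives no test and was not run for the difference of the deletions. With 3 arrays a group, an exact permutation test could not go below 0.10.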

Other observations

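Of the enzymes without a row of their own, Aldoa shares 1 row with Aldoart1, a gene copy expressed in testis, and Tkt shares 1 with Mir3076, so these values cannot be given to 1 gene. The Aldoa and Aldoart1 row stood at -0.43, -0.39 and -0.42 in LKB1 KO cells, against -0.39, -0.18 and 0.02 in LKB1 WT cells, and at -0.62, -0.28 and -0.20 in Tgfbr2 KO cells, against -0.28, -0.32 and -0.45 in Tgfbr2 WT cells. The 3 LKB1 KO arrays lay below the 3 LKB1 WT arrays on this row, by little at the closest (-0.389 in KO and -0.385 in WT). Of all transcript clusters 2.05% were separated in this direction. The lower-intensity arrays alone were separated the same way, as were 14.9% of all transcript clusters. The Tkt and Mir3076 row stood at 1.11, 1.41 and 1.84 in LKB1 KO cells, against 1.44, 1.48 and 1.84 in LKB1 WT cells, and at 2.03, 1.44 and 1.44 in Tgfbr2 KO cells, against 1.52, 1.47 and 2.09 in Tgfbr2 WT cells. The highest value of each group was on its higher-intensity array.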
